A study of Mus musculus with 2 samples.

Results

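Genes of cholesterol synthesis and sterol regulation were followed in the gonad-mesonephros complex of XX mouse embryos, the embryonic gonad dissected together with the mesonephros, a transient kidney that lies against it. A list of 32 genes was used: the enzymes that build cholesterol, the proteins that sense sterols, and the proteins that carry, store or export them. Members were found on the array as probe sets annotated with exactly 1 gene symbol equal to a listed gene. That gave 61 probe sets for 30 genes, out of 34945 probe sets for 18193 genes, and Acat2 and Soat1 had no probe set under this rule. The rule used no measured value, though the genes were listed with earlier results of these data known.

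The study compared 2 pools. The wild-type pool came from XX embryos at E12.5, in mid-gestation, and the mutant pool from XX embryos of the same age that were homozygous for Gata4ki (Gata4ki/ki). Gata4ki is a knock-in allele of the transcription factor gene Gata4 whose protein binds its FOG cofactors, such as FOG2, poorly. The comparison asks which genes of the early ovary depend on that complex. Each pool held total RNA of 6 pairs of complexes and was read on 1 array, so the embryos were averaged within a pool and no replicate error exists. The strain, C57Bl/6, was given for the mutant only. All values below describe these 2 arrays, with no p-value and no test of any difference.

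Cholesterol is made from acetyl-CoA through mevalonate, isoprenoid units, squalene and a series of sterols. When sterols in the endoplasmic reticulum run low, the escort protein SCAP carries the transcription factors SREBP1 and SREBP2 to the Golgi, where they are cut and released to switch on the genes of this pathway. INSIG proteins hold SCAP back when sterols are plentiful, and the LXR nuclear receptors switch on export genes such as Abca1 when oxysterols rise. In the gonad, cholesterol is also the starting material of steroid hormones.

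Sterol genes were close to equal on both arrays. The deposited values are MAS5 signal intensities, which carry 1 scale factor per array, and signals under 24.0 (the 50th percentile over both arrays, used as a floor) were set to it before taking log2. The gene's brightest probe set stands for it, and every log2 ratio is mutant minus wild type. All 30 genes were above the floor on both arrays, as were 49 of their 61 probe sets, and the other 12 probe sets were above it on neither. Their log2 ratios ran from -0.48 (Stard3) to 0.46 (Idi1), with a median of 0.10 beside a median of 0.01 over the 12300 genes measured. No member was 2-fold higher or lower, where 0.846% of all measured genes were 2-fold higher and 0.537% lower, 1.38% in all. A smaller step, 0.32 on the log2 scale, was counted too: a mutant signal at least 25% higher or at least 20% lower than wild type. Of the 30 members 27 lay within it, where 20.6% of all genes lay past it. Idi1 was past it on the higher side, where 10.8% of all genes were, and Lss and Stard3 were past it on the lower side, where 9.80% were. A ratio above 0 was seen for 21 of 30 members, or 70.0%, and for 51.4% of all genes. That difference in sign rests on small ratios and was not tested.

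The spread of the ratio sets the scale for these values. Over all probe sets above the floor, the robust SD of the log2 ratio was 0.37 where the geometric mean signal of both arrays was under 100, 0.22 where it was 100 to 400 and 0.12 where it was above 400. This is a spread between probe sets of 1 pair of arrays, which is not the spread between embryos. By this scale 2 of 30 members, Idi1 and Stard3, lay past 2 robust SDs, where 8.7% of all measured genes did. Msmo1 lies just under the edge at 400, and by the robust SD of the range above it, 0.12, its ratio of 0.31 would be past 2 as well.

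**Figure D1:**
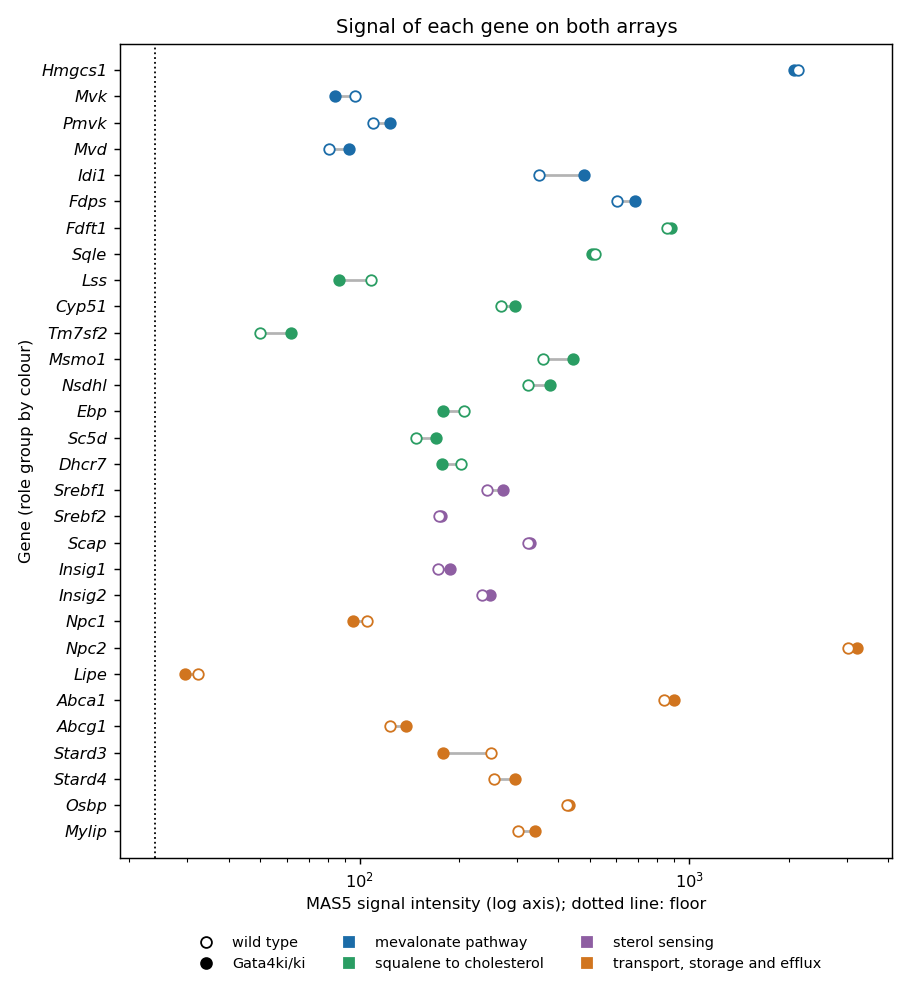
MAS5 signal (x axis, log scale) of the 30 genes on the wild-type array (open points) and the Gata4ki/ki array (filled points), 1 array each, by role group. Signals run from 29.5 (Lipe, mutant) to 3235 (Npc2, mutant), and the widest gaps are those of Idi1 and Stard3.

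Promoter sequences are shown for 4 members: Idi1 and Stard3, the genes with the highest and the lowest ratio; Hmgcs1, which with Stard3 holds the core word of the SREBP site; and Npc2, which holds a GATA word. Each is the stretch of 250 bases before the gene's RefSeq start (build GRCm38.p6), written 5′ to 3′ on the gene's strand. Capitals mark 3 words searched on both strands. The SREBP word is TCACNCCAC, the core of a sterol regulatory element. The word of NF-Y, a factor that works beside SREBP at many sterol genes, is CCAAT. The GATA factor word is GATAAG. No 2 of the words overlap in these stretches.
Hmgcs1, chr13:119690101-119690350, plus strand: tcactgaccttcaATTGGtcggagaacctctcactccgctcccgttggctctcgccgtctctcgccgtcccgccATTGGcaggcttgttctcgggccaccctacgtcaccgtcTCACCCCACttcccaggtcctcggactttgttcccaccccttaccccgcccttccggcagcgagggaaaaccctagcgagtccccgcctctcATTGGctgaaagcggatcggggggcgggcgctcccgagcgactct
Idi1, chr13:8885356-8885605, plus strand: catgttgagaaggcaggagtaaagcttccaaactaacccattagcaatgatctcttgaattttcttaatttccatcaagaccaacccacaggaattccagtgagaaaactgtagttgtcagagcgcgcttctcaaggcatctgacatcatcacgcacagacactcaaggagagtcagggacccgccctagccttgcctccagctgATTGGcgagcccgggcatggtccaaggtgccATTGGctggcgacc
Stard3, chr11:98358118-98358367, plus strand: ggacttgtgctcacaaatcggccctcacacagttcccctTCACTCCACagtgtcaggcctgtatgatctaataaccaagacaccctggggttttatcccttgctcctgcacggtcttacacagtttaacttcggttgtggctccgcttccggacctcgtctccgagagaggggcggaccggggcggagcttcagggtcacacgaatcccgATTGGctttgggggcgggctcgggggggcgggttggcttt
Npc2, chr12:84773113-84773362, minus strand: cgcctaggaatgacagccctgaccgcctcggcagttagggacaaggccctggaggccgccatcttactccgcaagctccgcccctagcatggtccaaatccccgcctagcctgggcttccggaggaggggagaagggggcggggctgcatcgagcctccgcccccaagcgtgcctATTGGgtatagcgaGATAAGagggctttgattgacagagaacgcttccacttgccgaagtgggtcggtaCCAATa

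The RefSeq promoter table held 26 of the 32 listed genes, with 35 starts. Entries for Fdps, Fdft1, Sqle, Npc1, Abcg1 and Stard4 were not used here. CCAAT was in 23 of the 35 member promoters (65.7%), belonging to 22 genes, and in 33.8% of all 32851 promoters of the same length. TCACNCCAC was in 2 of 35 (5.71%), those of Hmgcs1 and Stard3, and in 1.05% of all. GATAAG was in 2 of 35 (5.71%), belonging to Insig2 and Npc2, and in 6.55% of all. In Hmgcs1 the SREBP core begins 137 bases before the start, in Stard3 it begins 211 bases before, and the GATA word of Npc2 begins 61 bases before. Hmgcs1 and Stard3, which share the SREBP core, had log2 ratios of -0.04 and -0.48, and Npc2 had a ratio of 0.10. The words were chosen with these genes' values known, and a match describes letters, not binding.

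The mevalonate enzymes had a median log2 ratio of 0.18 over 6 genes, and Idi1 alone of them was at least 25% higher. The median turns to -0.03 without suffixed probe sets, and Idi1 falls to 0.29, short of 25% higher, by the median over its probe sets. Idi1 encodes the isomerase that interconverts the 2 isoprenoid building blocks. Its signal was 349.2 on the wild-type array and 479.3 on the mutant array, 1.37-fold higher, and 6.02% of all measured genes had a ratio as high or higher. Its geometric mean signal lies just above 400, so the robust SD beside it is 0.12, or 0.22 in the next range down. On its second probe set the signals were 174.1 and 188.3, a ratio of 0.11, so its readings share a sign but not a size.

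Hmgcs1 encodes the cytosolic HMG-CoA synthase, the enzyme of the first committed condensation of the pathway and a textbook SREBP target. It gave signals of 2136 and 2078, a ratio of -0.04. Its other 3 probe sets above the floor gave ratios of 0.06, -0.05 and 0.01. With 4 probe sets between -0.05 and 0.06, Hmgcs1 was the most closely repeated value among members with 3 or more probe sets above the floor.

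Mevalonate kinase (Mvk) gave signals of 97.1 and 84.2, a ratio of -0.21, and 73.6 and 50.3 on its second probe set, a ratio of -0.55. Both probe sets of Mvk were lower in the mutant, at signals where the robust SD is 0.37. Phosphomevalonate kinase (Pmvk) gave 109.7 and 123.7, a ratio of 0.17. The decarboxylase that follows it, Mvd, gave 80.5 and 93.1, a ratio of 0.21, but 78.6 and 76.8 on its second probe set, a ratio of -0.03. The 3 enzymes of these consecutive steps therefore did not share a sign. Farnesyl diphosphate synthase (Fdps), at the branch point to squalene, prenylated proteins and dolichol, gave 605.3 and 685.4, a ratio of 0.18.

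From squalene to cholesterol the ratios went both ways, with 6 of 10 enzymes above 0 and a median of 0.10. Squalene synthase (Fdft1) gave signals of 858.2 and 882.4, a ratio of 0.04, and -0.04 on its second probe set. Squalene epoxidase (Sqle), a rate-limiting step of the later pathway, gave 518.5 and 505.8, a ratio of -0.04. Both enzymes were within 1.04-fold on every probe set above the floor.

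Lanosterol synthase (Lss), which closes the sterol ring, gave signals of 108.4 and 86.3, 1.26-fold lower in the mutant, a ratio of -0.33. A second probe set read 82.6 and 89.6, a ratio of 0.12. Those of Lss thus disagree in sign, and with the suffixed probe sets left out its ratio is 0.12.

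The enzymes around the removal of lanosterol's methyl groups had ratios above 0. Lanosterol demethylase (Cyp51) gave 267.6 and 296.9, a ratio of 0.15, and 204.2 and 244.5 on its second probe set, a ratio of 0.26. Tm7sf2, a sterol reductase, gave 49.7 and 61.7, a ratio of 0.31 at a signal under 100, where the robust SD is 0.37. Msmo1, the sterol methyl oxidase, gave 359.1 and 444.0, also a ratio of 0.31. Nsdhl, the sterol dehydrogenase of the same demethylation complex, gave 323.9 and 377.4, a ratio of 0.22. These 4 genes act one after another, and each was between 1.11-fold and 1.24-fold higher in the mutant by its brightest probe set. Those ratios are small: Cyp51, Tm7sf2 and Nsdhl lay within 1 robust SD at their signals, and Msmo1 lay at 1.37.

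The last steps were mixed. Ebp, the sterol isomerase, gave 206.8 and 179.6, a ratio of -0.20. Sc5d, the desaturase that follows it, gave 148.5 and 170.0, a ratio of 0.19, and 0.08 on its second probe set. Dhcr7, which makes cholesterol from 7-dehydrocholesterol, gave 203.0 and 177.9, a ratio of -0.19. All 3 ratios lie within the robust SD of 0.22 at these signals. Ebp and Nsdhl are both X-linked, and their ratios differ in sign.

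The sterol sensors had the narrowest range, from 0.01 to 0.16 over 5 genes, with a median of 0.08, and none was 25% higher or 20% lower. Srebf1, which encodes SREBP1, gave signals of 243.5 and 272.2, a ratio of 0.16. Srebf2, which encodes the main activator of the cholesterol genes, gave 174.5 and 176.0, a ratio of 0.01. Its second probe set gave 129.6 and 97.0, a ratio of -0.42, so the sign for Srebf2 depends on the probe set. Scap gave 324.3 and 329.0, a ratio of 0.02. Insig1, itself an SREBP target and so a common readout of that factor, gave 172.6 and 188.6, a ratio of 0.13. Insig2 gave 235.8 and 248.6, a ratio of 0.08, and its other probe sets gave 0.26 and 0.00.

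**Figure D2:**
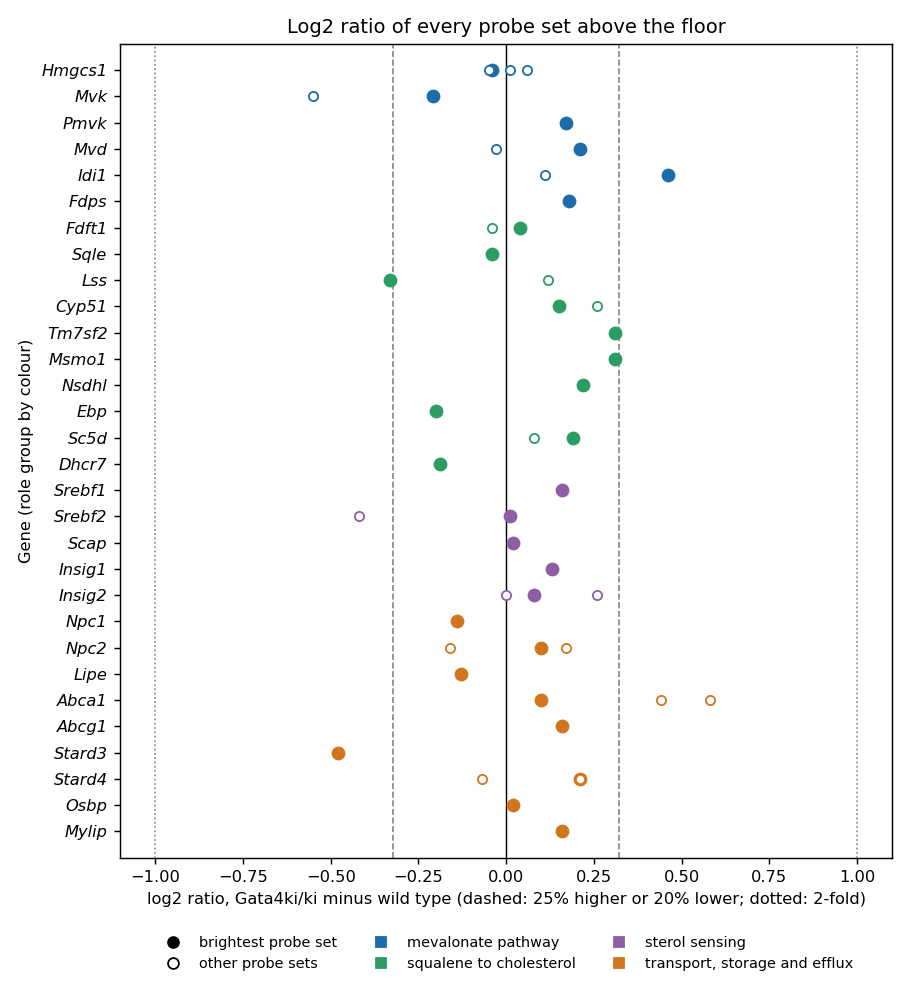
Log2 ratio, Gata4ki/ki minus wild type (x axis), of the 49 probe sets above the floor on both arrays, with filled points for the brightest probe set of a gene and open points for the others. The points lie between -0.55 (Mvk) and 0.58 (Abca1), and 7 of the 13 genes with several points have them on both sides of 0.

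Among the proteins that move sterols, Stard3 had the lowest ratio of all members. STARD3 is a late endosomal protein of the START family that binds cholesterol and tethers endosomes to the endoplasmic reticulum. Its only probe set gave 250.5 and 179.2, 1.40-fold lower in the mutant, and 4.61% of all measured genes had a ratio as low or lower. The ratio of -0.48 compares with a robust SD of 0.22 at this signal, and no second probe set repeats it. Stard4, a soluble START protein that carries cholesterol to the endoplasmic reticulum, gave 255.0 and 295.8, a ratio of 0.21. Its other probe sets gave 0.21 and -0.07. The 2 START members therefore stood on opposite sides of 0 on their brightest probe sets.

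The late endosomal exit pair was near equal. Npc1, the membrane protein that is mutated in most Niemann-Pick type C disease, gave 105.3 and 95.2, a ratio of -0.14. Npc2, its soluble partner, gave 3027 and 3235, a ratio of 0.10, with 0.17 and -0.16 on its other probe sets above the floor. The probe set at -0.16 was the dimmest of these, with 62.0 and 55.4. Osbp, which exchanges cholesterol for a phosphoinositide at membrane contacts, gave 425.5 and 430.5, a ratio of 0.02. Lipe, hormone-sensitive lipase, which frees cholesterol from its esters in steroid-making cells, gave 32.3 and 29.5, a ratio of -0.13 at a signal little above the floor.

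The LXR target genes among the members had small positive ratios on their brightest probe sets. Abca1, which exports cholesterol to lipid-poor apolipoproteins, gave 836.8 and 896.0, a ratio of 0.10. Its dimmer probe sets gave 71.6 and 107.0, a ratio of 0.58, and 29.7 and 40.3, a ratio of 0.44. The range of 0.48 between them was the widest among the 13 members with several probe sets above the floor, and the median over the probe sets would put Abca1 past 25% higher. Abcg1, a partner in export, gave 123.6 and 138.0, a ratio of 0.16, and its second probe set was above the floor on neither array (1.99 and 15.3). Mylip, also called IDOL, marks lipoprotein receptors for breakdown and gave 302.7 and 339.2, a ratio of 0.16.

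Macrophages express Abca1 and Abcg1 strongly, and most of their markers were brighter on the mutant array. Of 8 macrophage markers 7 had a ratio above 0 and 6 were at least 25% higher, where 10.8% of all genes were. Cx3cr1 went the other way, with 71.3 in wild type and 54.6 in the mutant, a ratio of -0.39. It was at least 20% lower, where 9.80% of all genes were. The median of the 8 was 0.69, with summed signals of 1329 on the wild-type and 2121 on the mutant array. None of the 8 was under the floor on both arrays. Of 6 measured erythroid markers 4 were at least 2-fold higher, where 0.846% of all genes were, and the median was 1.22. Among these 4, Hemgn was under the floor in wild type and measured through the mutant array alone. The globins Hbb-y and Hba-x were at -0.04 and 0.29. The summed signal of the 6 markers, mostly globin, was 13324 and 14274. Rhag was above the floor on neither array. In a mixed tissue, a different number of cells of a type and a different amount of RNA per cell cannot be told apart. The part of these cells in the ratios of the sterol genes was not tested.

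Probe sets of the same gene shared a sign about as often among members as elsewhere on the array. Of the 13 members with at least 2 measured probe sets, 6 had all of them on the same side of 0 (46.2%), against 45.0% of all such genes. The median range between probe sets was 0.28 for members and 0.30 for all 5463 such genes. In none of the 13 did all probe sets pass 25% higher, or all pass 20% lower, where 4.08% of all such genes did one or the other. The other 17 members rest on 1 measured probe set.

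**Figure D3:**
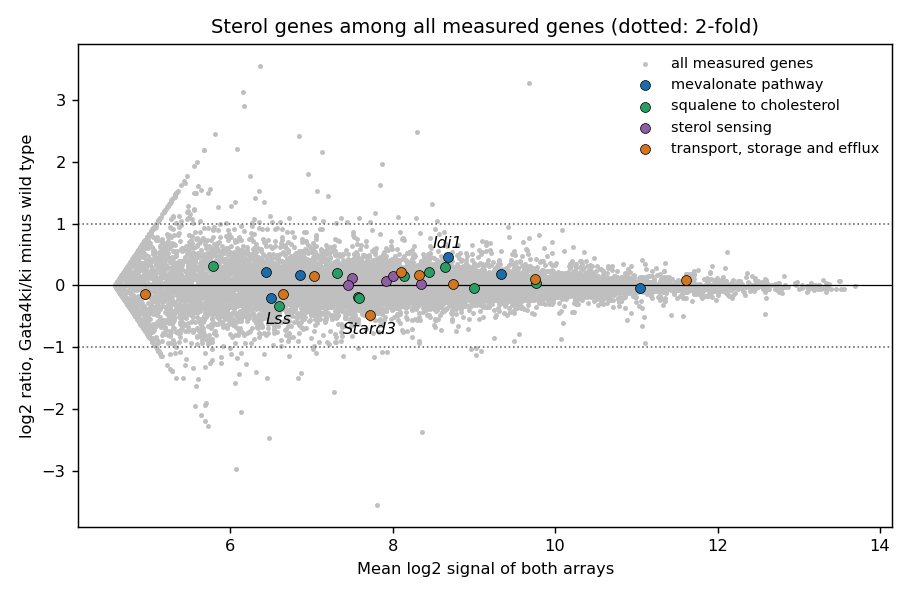
Log2 ratio, Gata4ki/ki minus wild type (y axis), against the mean log2 signal of both arrays (x axis) for 12300 measured genes (grey) and the 30 sterol genes (coloured by role group). The sterol genes lie between -0.48 and 0.46, inside the 2-fold lines.

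Other genes of the pathway were read from lists in the same way. The counts below stand beside 10.8% of all measured genes at least 25% higher and 9.80% at least 20% lower. Of the further cholesterol enzymes, Hsd17b7, Lbr and Acat1 had ratios of 0.16, 0.04 and -0.04. The 10 measured genes of the isoprenoid branches, which make prenyl groups, dolichol and the ubiquinone tail from the products of Fdps, had a median of -0.01, with none 25% higher or 20% lower. Their ends were Pggt1b and Fntb, prenyltransferase subunits, at 0.19 and 0.17, and Ggps1 and Dhdds, prenyl diphosphate synthases, at -0.28 and -0.16. Among 14 genes of SREBP transport, cleavage and turnover the median was -0.04. Syvn1, a ubiquitin ligase of the endoplasmic reticulum, was the only one at least 20% lower, at -0.37, and none was 25% higher. Next came Sec24a, a coat protein of transport vesicles, at -0.16. Erlin2 and Tmem97 were highest, at 0.31 and 0.21.

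The fatty acid genes driven by SREBP1 held no gene 25% higher or 20% lower, and their 14 genes had a median of 0.02. The desaturase Scd2 gave signals of 3562 and 4133, a ratio of 0.21, and Acss2, an acetyl-CoA synthetase, a ratio of 0.19. Fads2, a desaturase, and Mid1ip1, a regulator of acetyl-CoA carboxylase, were lowest at -0.29 and -0.18. Of 5 measured genes around LXR, Lpl, lipoprotein lipase, was 1.27-fold higher with 1031 and 1308, and Rxrb, a partner receptor, was 1.46-fold lower with 592.8 and 405.3. Pltp, a phospholipid transfer protein, was at 0.20 and Rxra, another partner receptor, at -0.02. Their median was 0.19. Nr1h3, which encodes LXR alpha, and Abca2 were above the floor on neither array. Nr1h2, which encodes LXR beta, and Arl4c were also on the list but were not read here.

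The 17 relatives of OSBP and START carriers had a median of 0.01, with 1 at least 25% higher and 2 at least 20% lower. Either way that is 17.6% of them, near the 20.6% of all genes. Osbpl6 was at 0.50 with signals of 40.3 and 56.8, Vapb, a contact site anchor, at 0.23, and Gramd1a and Osbpl10 at -0.38 and -0.36. For lipoprotein uptake and ester turnover, 2 of 9 measured genes were at least 25% higher and none 20% lower, around a median of 0.02. Either way that is 22.2% of them, again near the share of all genes. Cd36, a scavenger receptor found on macrophages and endothelium, gave 44.6 and 76.9, 1.72-fold higher. Lrp8 was at least 1.35-fold higher, but it was under the floor in wild type and measured through the mutant array alone. Lcat was above the floor on neither array. Among the genes above the floor on both arrays Lrp1 was next highest at 0.14. Scarb1, the receptor that takes up cholesterol esters from HDL, was lowest at -0.25, and Plin2, a lipid droplet coat protein, was at -0.11.

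Steroidogenic genes, which use the cholesterol, had higher signals in the mutant. Of 5 measured, 4 were at least 25% higher, where 10.8% of all genes were, and 3 of these at least 2-fold, where 0.846% were. Only Hsd3b1, at 66.1 and 297.0, and Fdx1 were above the floor on both arrays. Star, Cyp17a1 and Cyp11a1 were under the floor in wild type. They were measured through the mutant array alone, so they could only count as higher. Cyp11a1 read 35.2 in the mutant, little above the floor. Fdx1, the electron carrier of the side-chain cleavage step, was at 772.3 and 786.9, a ratio of 0.03. The 2 measured adrenal cortex markers were also higher, Mc2r at 0.32 and Mrap at least 1.44-fold, with Mrap under the floor in wild type. Cyp21a1 and Cyp11b1 were above the floor on neither array. The part of adrenal cells in this list, and the difference between it and the sterol members, were not tested.

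**Figure D4:**
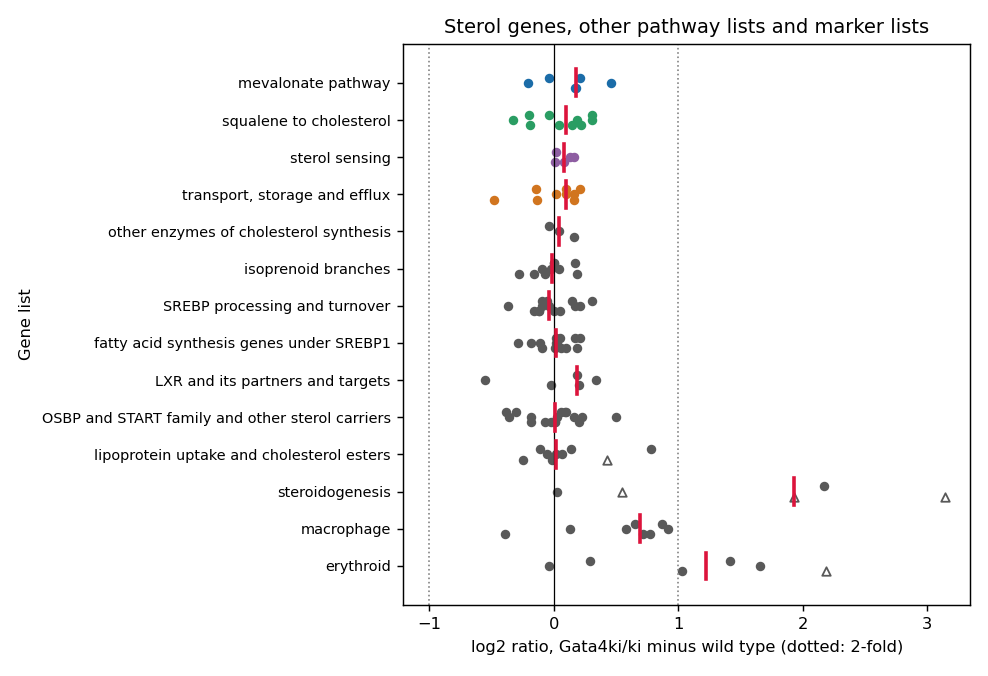
Log2 ratio, Gata4ki/ki minus wild type (x axis), of each measured gene (points) in the 4 role groups (coloured), 8 lists of other pathway genes and 2 marker lists (grey), with the list median as a red bar and genes under the floor in wild type as open triangles. Role group medians lie from 0.08 to 0.18 (the highest, of the mevalonate enzymes, turns to -0.03 without suffixed probe sets), those of macrophage and erythroid markers at 0.69 and 1.22, and triangles are lower bounds.

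Trimmed by 2% at each end, the mean signal was 150.0 on either array. MAS5 scaling sets this value, so it does not measure how alike the arrays were. As signs of RNA quality, 3′ over 5′ control signals of beta-actin were 2.16 and 2.47 (wild type, mutant), and those of Gapdh 0.90 and 1.10. All 5 markers of the gonadal soma (Wt1, Nr5a1, Lhx9, Gata4 and Emx2) were above the floor on both arrays, with summed signals of 4845 and 4552. So were the 4 mesonephric markers that had a probe set, with 995.5 and 905.3. Single ratios ran from -0.23 (Emx2) to 0.34 (Nr5a1) in the soma and from -0.19 to 0.21 in the mesonephric list. Of the 5 germ cell markers all were above the floor on both arrays, with 1685 and 1632. Their ratios ran from -0.31 (Dazl) to 0.51 (Kit), so the near-equal sums do not hold for each marker. Among liver markers, Alb, Ttr, Apoh and Fgb were above the floor on neither array, and Afp and Apoa2 gave a summed signal of 426.5 and 327.5. Most of that sum was Afp, at 412.3 and 297.4, and Apoa2 was under the floor in wild type. The summed signal of the adrenal cortex markers Mc2r and Mrap was 138.8 and 179.4. Endothelial markers had a median of -0.22 over 4 genes, with summed signals of 660.0 and 660.3. The 3 measured neural markers had a median of 0.14, with 398.6 and 442.7, and Sox10 was above the floor on neither array. Of these 3 only Stmn2, at 358.7 and 394.1, was above it on both. Elavl4 was under the floor in wild type and Tubb3 in the mutant. The gonad's share of the RNA cannot be told apart from the mesonephros on these arrays.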

How the data were processed

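Total RNA was converted to biotin-labelled cRNA and read on 1 array per group, per the labels' protocols. The deposited values are signal intensities made by the authors with MAS5, per the submitters' processing notes; no version, detection call or filter is given in the sources used here. They were used as deposited. Gene names came from the platform's annotation (34958 with 1 symbol, 932 with several, 9211 with none), 64 control probe sets were left out, and 30 of 30 member gene numbers matched RefSeq (GRCm38.p6) with no symbol changed. Values under the floor of 24.0 were set to it before log2, and a gene was measured if 1 array was above it. Counts are of genes 25% higher, 20% lower or 2-fold apart, since 1 array per group allows no test. All members are named, and of each pathway list the 2 highest, the 2 lowest and any gene 2-fold apart. Members, lists and motifs were chosen with earlier results of these data known. The calculation was tested on simulated data. Alternatives were floors at the 40th and 60th percentile, a pseudocount of 16, the median over probe sets, no suffixed probe sets, quantile normalization and lowess (fraction 0.3). Python 3.11.15, pandas 2.3.3 and statsmodels 0.14.6 were used. The number of arrays limits the precision.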

Additional observations from a re-analysis of the deposited data

How the results depend on the processing

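The median over all members stayed between 0.08 and 0.10 under every alternative, and no member was 2-fold apart under any. The mevalonate median moved from 0.18 to -0.03 without suffixed probe sets, which removes Pmvk (and Msmo1 and Srebf1 from other groups) and gives Mvd a ratio of -0.03. The count of members at least 25% higher was 2 in place of 1 with lowess and with quantile normalization, both adding Tm7sf2. The count at least 20% lower was 1 in place of 2 with the pseudocount, with quantile normalization and without suffixed probe sets, each time without Lss, whose ratio turned to 0.12 in the last. The median over probe sets put Abca1 at 0.44 and Idi1 at 0.29, and called Abca1 and Mvk in place of Idi1 and Lss. Stard3 stayed between -0.49 and -0.45. No scaling moved the median of all genes by more than 0.01. With the 60th percentile floor Lipe was not measured. No paired analysis was possible because each group has 1 array. Low signals limit Lipe and Tm7sf2 most.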
